A study of Mus musculus with 72 samples.

Results

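The mouse genome carries a large family of protein-coding genes whose symbol is Zfp followed by a number, most of them encoding proteins with C2H2 zinc fingers. Of 363 such genes in the annotation, leaving out Zfp36, which encodes a CCCH-type RNA-binding protein, and Zfp42, the pluripotency marker Rex1, 306 had a mean of at least 2000 thymidine positions covered by exonic reads per nuclear library and make up the set described here. Because the minimum was set in nuclear libraries, the rule favours genes that are high in the nucleus. With the minimum set in whole-cell libraries 293 genes passed, 292 of them also by the nuclear rule. Zfp786, Zfp287 and Zfp202 lay just outside it with means of 1887, 1926 and 1929 positions, and Zfp109, Zfp711 and Zfp869 lay just inside with 2144, 2202 and 2332. The comparison set was all 11009 protein-coding genes that passed the same minimum, the Zfp genes included.

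The RNA came from E14TG2a cells, an established line of mouse embryonic stem cells, without any deletion or transgene named in the labels, grown in 2i + LIF medium and exposed to 4-thiouridine (4sU). 4sU is built into RNA as it is made and is read after chemical treatment as a T-to-C change (SLAM-seq). Not every read of new RNA carries such a change, so the share of new RNA is estimated over all reads of a gene. Cells were split with detergents into a nuclear, a cytosolic and a membrane fraction, beside an extract of whole cells, and poly(A) RNA of each was sequenced. The 72 libraries, 18 per fraction, were labeled for 15, 20 and 30 min in replicates 1 and 2, for 20, 40, 60 and 120 min in replicates 3 and 4, and for 60 and 120 min in replicates 5 and 6. The labels give 500 µM 4sU for times up to 40 min and 100 µM for 60 and 120 min. The labels and the published methods do not give the same dose for the 60 min libraries of replicates 3 and 4, so that dose is unsure, and the same holds for their 120 min libraries. At 60 min, dose and pair of replicates cannot be told apart. The 8 libraries of replicates 3 and 4 at 120 min were set aside, except in the rule above and in the last comparison, which leaves 64.

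Most Zfp genes of the mouse encode KRAB zinc finger proteins. In these, an array of C2H2 fingers reads a DNA sequence, often in a retroelement, and an N-terminal KRAB box recruits Trim28 (KAP1), which in turn brings the histone methyltransferase Setdb1 and other silencing factors. The genes lie in clusters that grew by duplication, so neighbours can be nearly alike in sequence. Other Zfp genes have no KRAB box and encode transcription factors, RNA-binding proteins or ribosome factors. In the reference proteins of 305 of the genes, 181 had a match to the KRAB A box, defined as at least 10 of 14 key positions, and 124 had none, with 9 proteins scoring 7 to 10. A C2H2 match was a cysteine pair and a histidine pair at the spacing of the domain. The proteins had a median of 11 such matches, up to 36, and 7 had none.

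How the finger is written in the gene is shown for 5 genes that recur in the results. Each line gives the first finger and the linker after it, 84 bases from the GRCm38 genome read along the gene's strand, and the capitals mark the codons of the cysteine pair and the histidine pair. They are Zfp600 at chr4:146195520-146195603 (plus strand), Zfp57 at chr17:37009679-37009762 (plus), Zfp809 at chr9:22238764-22238847 (plus), Zfp281 at chr1:136626063-136626146 (plus) and Zfp219 at chr14:52009399-52009482 (minus), all in coding exons.
Zfp600: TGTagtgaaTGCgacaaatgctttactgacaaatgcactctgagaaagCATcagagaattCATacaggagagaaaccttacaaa
Zfp57: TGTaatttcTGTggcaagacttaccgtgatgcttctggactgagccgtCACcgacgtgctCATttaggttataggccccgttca
Zfp809: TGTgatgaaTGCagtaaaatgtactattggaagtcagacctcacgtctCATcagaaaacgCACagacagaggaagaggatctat
Zfp281: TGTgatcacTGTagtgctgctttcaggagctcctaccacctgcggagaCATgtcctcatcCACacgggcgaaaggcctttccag
Zfp219: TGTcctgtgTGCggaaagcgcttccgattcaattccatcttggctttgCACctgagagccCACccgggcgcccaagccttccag
The cysteine pair and the histidine pair recur in all 5, though not always with the same codons, and the bases between them differ. The G+C content of the windows ran from 38.1% in Zfp600, a KRAB gene of a chromosome 4 cluster, to 59.5% in Zfp219, which had no KRAB match. That difference held for the coding sequences as a whole, with a median G+C content of 42.0% in the 181 KRAB genes, 54.0% in the 124 others and 52.9% in all protein-coding genes.

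Duplication also limits what can be counted. For 49 of the genes at least 10% of the 75-base windows of the transcripts occurred in another gene, and for 16 at least 50%. The gene counts used uniquely placed reads, whereas the thymidine positions included reads with several placements. In the nucleus the median gene had 31.5 thymidine positions per counted read and the median protein-coding gene 29.7. The ratio passed 100 in 9 Zfp genes and was 340 in Zfp600 and 609 in Zfp82. In these 9 genes the conversions thus include many reads that the gene counts left out, and their shares are not those of a single gene alone.

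**Figure D1:**
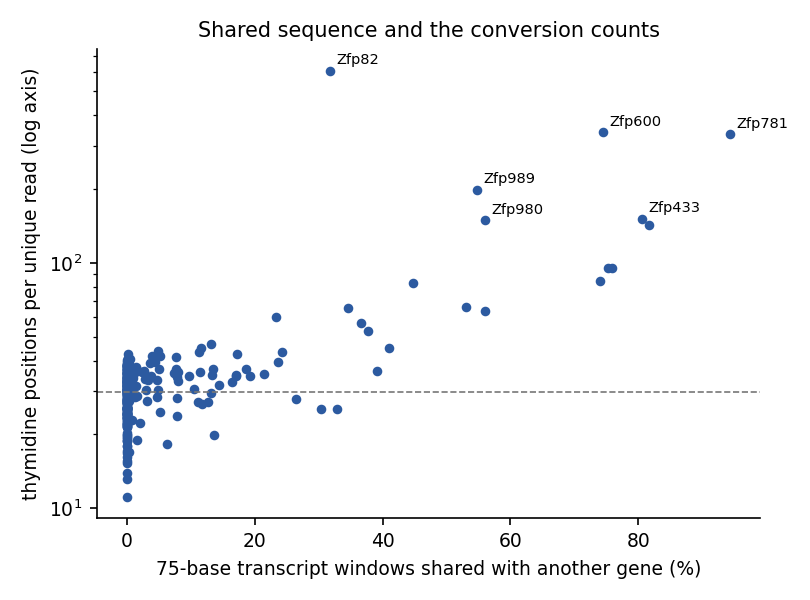
Thymidine positions per uniquely counted read in the nuclear libraries (log axis) against the percentage of 75-base transcript windows that another gene also holds, 1 point per Zfp gene. The dashed line is the median of all protein-coding genes, 29.7. Most genes lie at 0% near that line, and Zfp82 and Zfp600 stand highest.

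Zfp708, Zfp935, Zfp966, Zfp969 and Zfp973 passed the coverage rule but had too few uniquely placed reads for a test of counts. Each window below is the first 75-base stretch of the coding sequence that lies within a single exon and also occurs in another gene. The part of shared sequence in the low counts was not tested. All of their coding windows occurred in at least one other gene. The printed windows are at chr13:67074885-67074959 (minus strand), chr13:62456985-62457059 (minus), chr2:175923041-175923115 (minus), chr2:175695639-175695713 (minus) and chr2:176678536-176678610 (plus) of GRCm38, in coding exons.
Zfp708: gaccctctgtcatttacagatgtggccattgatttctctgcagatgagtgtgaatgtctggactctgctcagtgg
Zfp935: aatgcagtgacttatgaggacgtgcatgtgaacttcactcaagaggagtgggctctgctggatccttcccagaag
Zfp966: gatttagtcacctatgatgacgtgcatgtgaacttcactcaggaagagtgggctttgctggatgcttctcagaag
Zfp969: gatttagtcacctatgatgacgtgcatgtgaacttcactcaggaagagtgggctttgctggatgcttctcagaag
Zfp973: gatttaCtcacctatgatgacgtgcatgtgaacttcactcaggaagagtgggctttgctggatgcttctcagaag
Zfp966 and Zfp969 are identical over this window, which 8 other genes share with each of them. The capital in Zfp973 marks its 1 difference from Zfp966, G7C, with positions counted from 1 at the 5′ end of the window. Values for single genes of these groups are therefore uncertain. Of the 306 genes, 62 also overlapped another annotated gene on the same strand.

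Library sizes ran from 13185351 to 52975732 gene counts with a median of 21494524. Markers of embryonic stem cells were high in the whole-cell libraries, with Pou5f1 at 624 to 1527 CPM, read counts relative to the scaled size of the library, while fibroblast markers stayed at or below 1.40 CPM and mesendoderm markers at or below 3.79 CPM. The neural markers Sox1, Pax6 and Neurod1 lay between 1.94 and 17.1 CPM, and all 3 passed the filter on low counts. In these bulk libraries a change in the fraction of cells with an RNA and a change in RNA per cell cannot be told apart. The whole-cell libraries of replicate 6 went against the labeled order, with a median Zfp share of new RNA of 0.758 at 60 min and 0.413 at 120 min. They enter the comparison of labeling times only through the shared estimate of the spread. The Zfp genes were expressed at low to middle levels, with medians of 19.8 CPM in the nucleus, 17.4 CPM in the cytosol and 14.4 CPM in the membrane fraction. Per kilobase of exon their median nuclear level was 4.25 CPM, below the 7.45 CPM of all protein-coding genes.

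Zfp RNAs in every compartment were younger than the average messenger RNA. The share of new RNA, the exonic T-to-C conversions divided by the thymidine positions and by the conversion probability of the library, had a higher median over the Zfp genes than over all protein-coding genes in 64 of 64 libraries, by 1.45 to 4.50 times. After 20 min the mean of the library medians was 0.130 ± 0.054 (SD, n = 4) in the nucleus, against 0.0741 for all genes, and 0.0505 in the cytosol, against 0.0222. At 60 min the nuclear value was 0.467 ± 0.073 (SD, n = 4), against 0.238, and the cytosolic value 0.433 ± 0.130 (SD, n = 4), against 0.147. At 120 min, with n = 2, the shares were 0.790 in the nucleus, 0.883 in the cytosol and 0.847 in the membrane fraction, against 0.437, 0.383 and 0.307 for all genes. In 1 cytosolic library at 120 min, 278 of 305 Zfp genes (91.1%) had an exon share of at least 0.5, and in the other 273 of 306 (89.2%). For all protein-coding genes these were 36.4% and 36.0%. The ratio of the Zfp median to that of all genes ran from 1.45 to 3.64 in the cytosol, from 2.00 to 4.50 in the membrane fraction and from 1.68 to 2.10 in the nucleus. At 15 min the cytosolic ratios of 1.54 and 1.45 lay below the nuclear ones of 1.71 and 1.75.

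**Figure D2:**
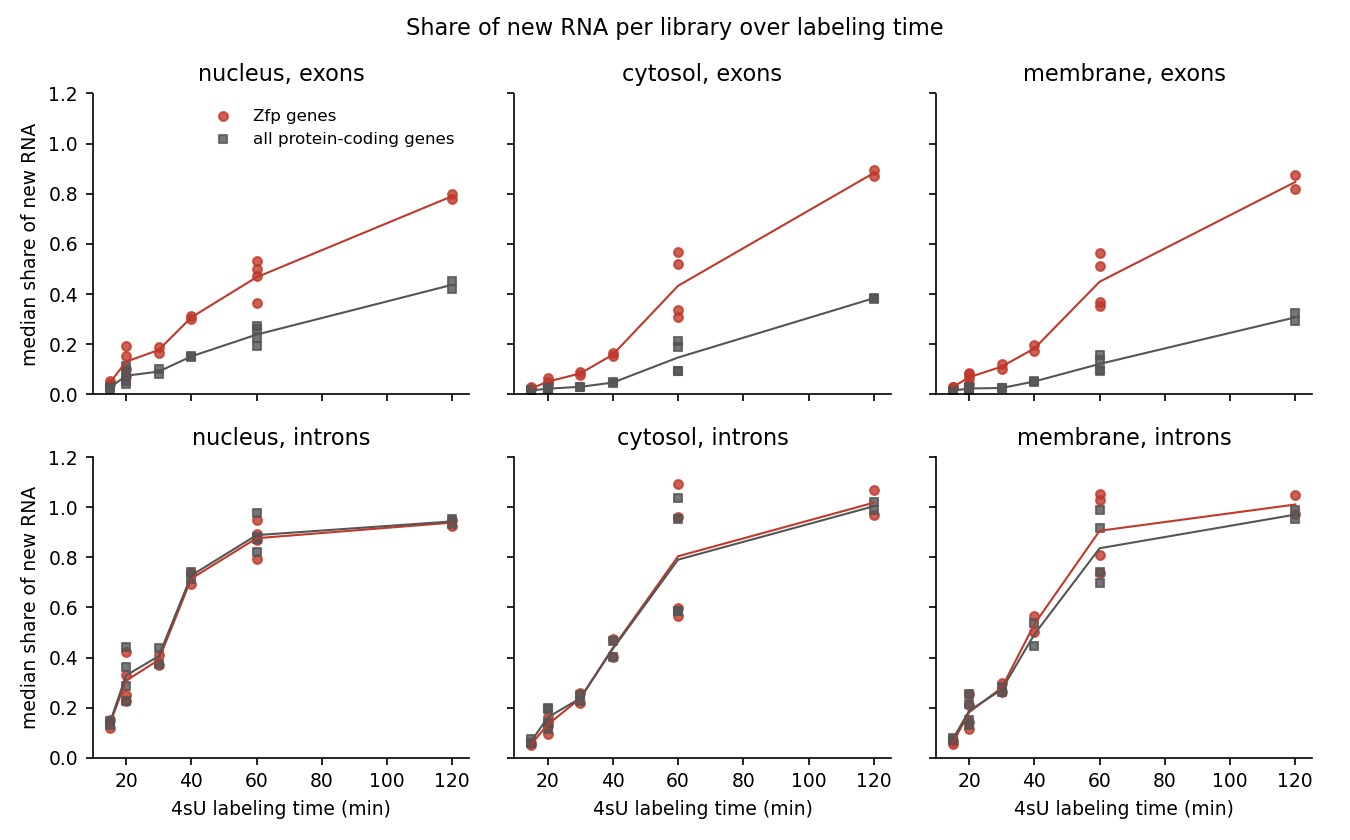
Median share of new RNA per library against 4sU labeling time in min, for exons (top) and introns (bottom) of 3 fractions. Red circles are the Zfp genes and grey squares all protein-coding genes, 1 point per library, with lines through the means; the Zfp exons lie above in every library, at 0.883 and 0.383 on average in the cytosol at 120 min, while the intron values overlap.

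Intron shares of the Zfp genes were close to those of all genes. Their nuclear introns had median shares of 0.308 at 20 min, 0.715 at 40 min and 0.876 at 60 min, against 0.329, 0.727 and 0.889 for all genes. Over all fractions the Zfp intron median was above that of all genes in 26 of 64 libraries, at 0.72 to 1.13 times.

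Within the family the shares ran over more than an order of magnitude. At the top at 60 min in the nucleus stood Zfp11, Zfp773, Zfp367, Zfp157 and Zfp941, with mean shares of 0.872 ± 0.068, 0.862 ± 0.089, 0.825 ± 0.119, 0.820 ± 0.079 and 0.807 ± 0.104 (SD, n = 4). For Zfp11 the 4 nuclear values were 0.861, 0.780, 0.934 and 0.911 in replicates 3 to 6, and for Zfp773 they were 0.873, 0.753, 0.970 and 0.854. The neighbours in this order did not differ beyond their spread. A share can pass 1, as in the cytosol for Zfp773 at 1.09 ± 0.24 (SD, n = 4), because it is divided by an estimated probability.

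At the bottom were Zfp185, Zfp423, Zfp692, Zfp277 and Zfp106. Zfp185, which encodes a LIM-domain protein of the actin cytoskeleton and had no C2H2 match, had nuclear shares of 0.034, 0.026, 0.046 and 0.040 in replicates 3 to 6. Zfp423, a 27-finger transcription factor of brain and fat cell development, had 0.133, 0.079, 0.058 and 0.042. Zfp692 had 0.096, 0.118, 0.125 and 0.056, and the means of Zfp277 and Zfp106 were 0.123 ± 0.043 and 0.168 ± 0.047 (SD, n = 4). None of the 5 had a KRAB match.

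KRAB genes carried the younger RNA. Their median exon share was above that of the other Zfp genes in 64 of 64 libraries, and at 60 min the gene medians were 0.504 against 0.436 in the nucleus, 0.459 against 0.359 in the cytosol and 0.507 against 0.355 in the membrane fraction. In the cytosol at 60 min the median share was 0.24 for proteins with 0 to 5 finger matches, 0.43 with 6 to 11 and 0.48 with 12 or more, while in the nucleus at 20 min it was 0.107, 0.150 and 0.129, highest in the middle group. These are descriptions over genes, which share libraries and, within clusters, sequence.

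The next comparison asks how new RNA was spread between nucleus and cytosol, the question that labeling of fractions addresses. After 20 min the share was higher in the nucleus for 146 of 305 Zfp genes and lower for 0 (limma, adjusted p under 0.05 and a log2 difference over 0.5), with a median log2 difference of 1.21. Over all 12377 genes tested, 49.3% were called higher and 0.154% lower, and the median over protein-coding genes was 1.43; of the Zfp genes 47.9% were called. The count rests on few libraries. It was 28 within replicates 1 and 2 and 168 within replicates 3 and 4, beside 1645 and 7074 of all 12377 genes. The Zfp count fell to 72, 47 or 73 without replicate 2, 3 or 4. Over all genes 3807 of 12428, 2779 of 12830 and 3423 of 12480 were then called higher, so the fall was not particular to the Zfp genes.

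By 60 min the nuclear and cytosolic shares of the Zfp genes had come close. Only 16 of 305 were called higher in the nucleus and 5 lower, where 23.9% of the 12507 genes tested were called higher and 1.17% lower. The median log2 difference was 0.15, against 0.75 for protein-coding genes. The 16 higher genes were Zfp330, Zfp335, Zfp346, Zfp369, Zfp384, Zfp414, Zfp445, Zfp446, Zfp511, Zfp512, Zfp523, Zfp598, Zfp639, Zfp740, Zfp771 and Zfp973, and the 5 lower ones were Zfp97, Zfp120, Zfp738, Zfp953 and Zfp960. Of the 16, 13 lacked a KRAB match, and all 5 lower ones had it.

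Zfp598, an E3 ubiquitin ligase that acts on collided ribosomes, had nuclear shares of 0.288, 0.274, 0.237 and 0.244 and cytosolic shares of 0.037, 0.045, 0.088 and 0.067 in replicates 3 to 6. The fractions did not overlap, and the log2 difference was 2.21 ± 0.41 (SE, limma adjusted p = 0.00659). For Zfp511 the nuclear values were 0.178, 0.241, 0.286 and 0.160 and the cytosolic ones 0.027, 0.028, 0.052 and 0.107, also without overlap, with a difference of 2.19 ± 0.49 (SE, limma adjusted p = 0.0107). Zfp953, a KRAB gene of chromosome 13, ran the other way. Its nuclear shares were 0.219, 0.105, 0.340 and 0.394 and its cytosolic shares 0.519, 0.545, 0.606 and 0.562, higher in every replicate, with a difference of -1.24 ± 0.38 (SE, limma adjusted p = 0.0282).

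The pairs of replicates differed at 60 min. Over the Zfp genes the median shares in nucleus and cytosol were 0.499 and 0.336 in replicate 3 and 0.364 and 0.309 in replicate 4, but 0.532 and 0.569 in replicate 5 and 0.472 and 0.518 in replicate 6. Within replicates 3 and 4 alone, 83 Zfp genes were called higher and 4 lower, beside 7022 and 144 of all 12507 genes. Within replicates 5 and 6 these were 0 and 0, beside 1 and 3 of all genes. Without replicate 3, 0 and 0 Zfp genes were called, beside 139 and 26 of 13124 genes. Without replicate 4 they were 0 and 0, beside 2 and 7 of 12600. The loss of calls was thus not particular to the Zfp genes. With the replicate number as a block the Zfp counts were 31 and 11, beside 3600 and 253 of all genes. A test of the difference between the pairs called 0 of 12507 genes after adjustment and gave 44 Zfp genes and 4038 genes in all an unadjusted p under 0.05.

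Introns are removed by splicing, so their reads come from precursor RNA, and in the nucleus they were newer than exons. At 20 min the intron share was higher for 183 of 274 Zfp genes and lower for 0, with a median log2 difference of 1.22, and at 60 min for 202 of 246 and 0, with 0.88. Of all genes tested, 86.3% were higher and 0.16% lower at 20 min, and 95.3% and 0.186% at 60 min, with medians of 2.17 and 1.84 over protein-coding genes. Of the Zfp genes 66.8% and 82.1% were called, beside exon shares above and intron shares close to those of all genes. The widest gap at 20 min was in Zfp423, with intron shares of 0.595 to 0.693 and exon shares of 0.019 to 0.056 over 4 libraries (log2 difference 4.16 ± 0.45 SE, limma adjusted p = 6.59e-08). Zfp953, Zfp653, Zfp511 and Zfp398 followed with differences of 4.12, 3.87, 3.76 and 3.64. At the other end Zfp711, Zfp811, Zfp433, Zfp948 and Zfp966 had differences of -1.05, -0.33, -0.31, -0.25 and -0.19, none of them called.

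A few introns stayed old. Of 246 Zfp genes with a measured nuclear intron share at 60 min, 6 (2.44%) were below 0.5, where 5.19% of 9879 protein-coding genes were. They were Zfp692 at 0.24, Zfp811 at 0.37, Zfp969 at 0.38, Zfp970 at 0.42, Zfp868 at 0.43 and Zfp182 at 0.44. In Zfp692 the 4 intron values were 0.261, 0.219, 0.279 and 0.221 in replicates 3 to 6, each above the exon value of the same library.

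Read counts were then compared between nucleus and cytosol, summed over labeling times for each of 6 replicates. Of 301 Zfp genes tested with edgeR, 103 were higher in the nucleus and 31 lower, with a median log2 ratio of 0.21, and of all 18497 genes 37.5% were higher and 18.9% lower. With members chosen by whole-cell coverage 99 of 289 were higher and 32 lower. The zero of this ratio depends on the scaling. The median of all genes was 0.25 under TMM, 0.10 with RLE size factors, the scaling of DESeq2, and -0.03 without replicate 4. The counts of Zfp genes were 82 higher and 55 lower with RLE, and 63 and 70 without replicate 4. Over all genes these were 6222 and 4478 of 18497, and 5153 and 4797 of 18401. The share of higher calls among the called Zfp genes accordingly moved from 76.9% to 59.9% and 47.4%. Relative to the median of protein-coding genes the Zfp median stood at 0.07, 0.06 and 0.08, and within the 3 pairs of replicates at 0.10, -0.07 and -0.02, small beside the range of the single genes from -1.65 to 3.88. Within replicates 1 and 2, 3 and 4, and 5 and 6 the Zfp counts were 117 and 48, 111 and 64, and 87 and 34. Of all 20603 genes, 7112 and 3715, 8991 and 4668, and 5663 and 2595 were called there. The 6 nuclear values lay above all 6 cytosolic ones in 59 Zfp genes, below them in 23, and overlapped them in 219. The same tally was not made over all genes, so these counts describe single genes and not a trait of the family.

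Highest was Zfp185, at chrX:72987339-73031543 of GRCm38 (plus strand). Its RNA had 58.6 CPM at the lowest, 105 CPM at the median and 127 CPM at the highest of the 6 nuclear sums, and 4.38, 7.19 and 8.04 CPM in the cytosol. The groups did not overlap, and the log2 ratio was 3.88 ± 0.21 (SE, edgeR adjusted p = 2.39e-10). This is also the gene with the oldest nuclear RNA, while its introns had shares of 0.548 to 0.758 at 60 min. Zfp692, at chr11:58307069-58314627 (plus strand), also had old exonic RNA, but its introns were old as well. It had 67.1, 94.2 and 121 CPM in the nucleus, 8.49, 20.4 and 27.6 CPM in the cytosol, and a ratio of 2.31 ± 0.25 (SE, edgeR adjusted p = 3.31e-07). The other high ratios were those of KRAB genes or of duplicated clusters. Zfp980, Zfp981 and Zfp978 lie on chromosome 4, with log2 ratios of 2.40, 2.11 and 2.07. Zfp981 had 136 to 373 CPM in the nucleus and 43.0 to 68.3 CPM in the cytosol, without overlap. Zfp934 and Zfp950 had ratios of 2.20 and 2.06. Zfp82, at 2.67, rested on 0.599 CPM in the nucleus and 0.0851 CPM in the cytosol, with 31.8% of its windows shared and an overlapping gene on its strand.

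Lowest was Zfp706, a small protein with 1 finger match, at chr15:36997027-37007773 (minus strand). It had 126, 137 and 159 CPM at the lowest, median and highest in the nucleus and 348, 399 and 649 CPM in the cytosol, with no overlap and a log2 ratio of -1.65 ± 0.15 (SE, edgeR adjusted p = 3.35e-08). Zfp105 followed with 17.5, 18.5 and 18.7 CPM in the nucleus and 32.1 to 72.5 CPM in the cytosol, a ratio of -1.24 ± 0.19 (SE, edgeR adjusted p = 1.44e-05). Zfp449, Zfp428, Zfp35, Zfp418, Zfp69 and Zfp454 had ratios of -1.0, -0.96, -0.92, -0.90, -0.90 and -0.88, all called. The calls of these 8 genes and of the 8 highest held under all 16 alternatives tried for this comparison, other scalings and each left-out replicate included, except that Zfp82 could be tested in 15 of them and was called in those 15.

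**Figure D3:**
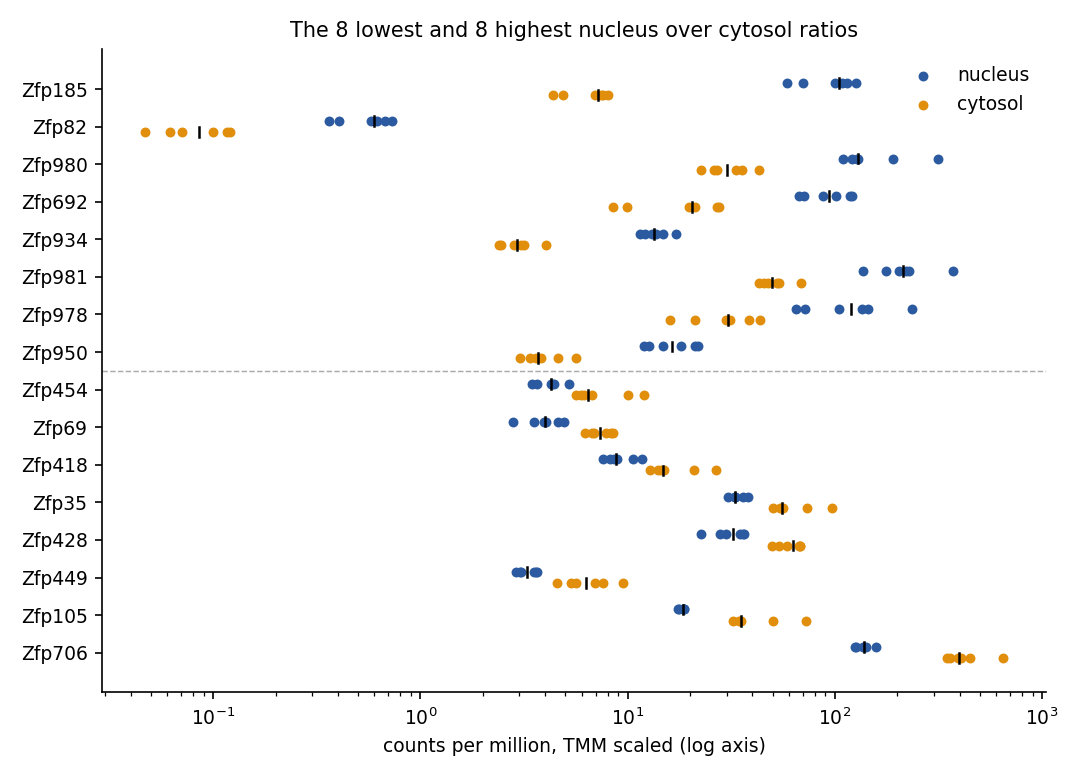
Read counts in CPM (TMM scaled, log axis) of the 8 Zfp genes with the highest (top) and the 8 with the lowest (bottom) nucleus over cytosol ratio. Blue and orange points are the 6 replicate sums of nucleus and cytosol and the black ticks their medians; the nuclear points of Zfp185 lie between 58.6 and 127 and its cytosolic points between 4.38 and 8.04.

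Ratios went with the chromosome. The 25 genes of chromosome 4 had a median log2 ratio of 1.14, with 17 higher and 3 lower, and the 39 of chromosome 17 a median of 0.81, with 24 higher and 0 lower. The 77 genes of chromosome 7, the largest group, had a median of -0.04, with 14 higher and 7 lower. Medians of the other chromosomes with 10 or more of the genes lay between 0.43 on chromosome 2 and -0.29 on chromosome 11. KRAB genes as a whole had a median of 0.35 with 68 of 176 (38.6%) higher and 11 (6.25%) lower. The other Zfp genes had a median of 0.10 with 34 of 124 (27.4%) higher and 20 (16.1%) lower. Over all genes tested 37.5% were higher and 18.9% lower, so the KRAB share of higher calls was near that of all genes.

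Shared sequence moved with these ratios. The genes with at least 10% of their windows shared had a median of 0.82, with 26 of 44 higher and 1 lower, and the rest 0.12, with 76 higher and 30 lower. Among the latter the KRAB genes had a median of 0.18 and the others 0.06. Base composition moved with them as well. Spearman's rho between the log2 ratio and the G+C content of the coding sequence was -0.54 over 176 KRAB genes and 0.03 over the 124 others, all from the same libraries. The part of either in the ratios was not tested.

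**Figure D4:**
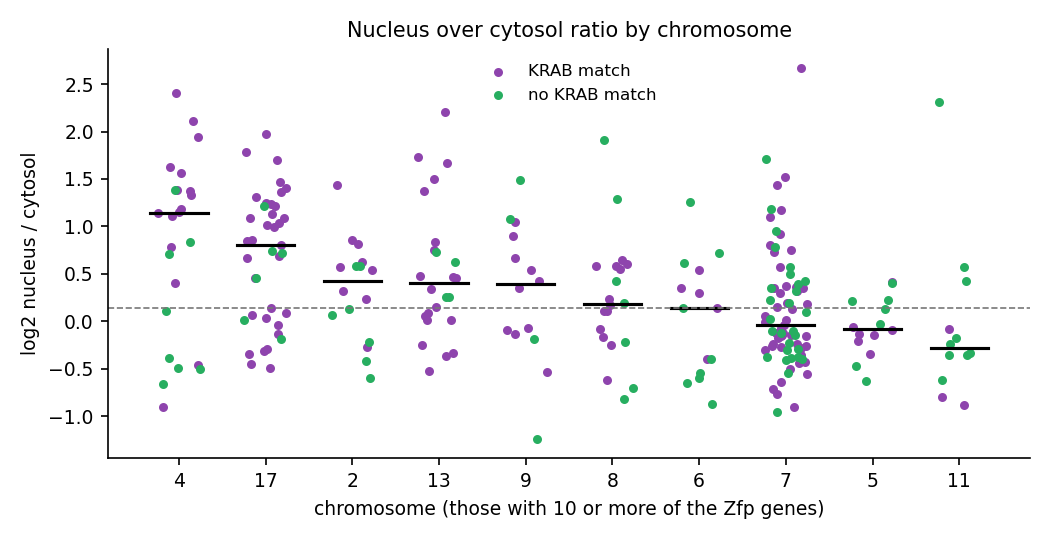
Log2 nucleus over cytosol ratio of each Zfp gene by chromosome, for chromosomes with 10 or more of them. Purple and green points are genes with and without a KRAB match, black bars the medians and the dashed line the median of all protein-coding genes, 0.14; chromosomes 4 and 17 lie highest, at 1.14 and 0.81, and chromosome 7 at -0.04.

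In the membrane fraction, which holds RNAs translated at the endoplasmic reticulum, Zfp RNAs were depleted relative to the cytosol more often than enriched. Of 301 tested, 6 were higher and 55 lower, with a median log2 ratio of -0.30, where 21.1% of all genes were higher and 9.12% lower and the median of protein-coding genes was -0.22. With scaling to total counts alone, which shifted the median of all genes from -0.16 to -0.45, the counts were 2 and 184. The Zfp median lay 0.08 below that of protein-coding genes with TMM and 0.07 below with total counts. Within the pairs of replicates the counts were 14 and 88, 11 and 51, and 3 and 77.

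The 6 genes higher in the membrane fraction were Zfp397, Zfp970, Zfp658, Zfp101, Zfp950 and Zfp185, with log2 ratios of 1.24, 0.99, 0.85, 0.78, 0.71 and 0.64. All 6 were also called higher in the nucleus. Zfp397 had 33.5 CPM at the lowest, 44.0 CPM at the median and 62.8 CPM at the highest in the membrane fraction and 17.7, 19.0 and 22.0 CPM in the cytosol, without overlap (edgeR adjusted p = 6.84e-07), and 32.0 to 46.0 CPM in the nucleus. The most depleted were Zfp335, a regulator found with H3K4 methyltransferases, at -1.0 ± 0.28 (SE, edgeR adjusted p = 0.00857), and Zfp39, Zfp574, Zfp706 and Zfp563 at -0.85, -0.85, -0.76 and -0.75. For Zfp335 the membrane values were 9.82, 12.6 and 16.6 CPM and the cytosolic ones 11.8, 23.9 and 41.7 CPM at the lowest, median and highest, which overlap. Zfp383 and Zfp692 were both higher in the nucleus and lower in the membrane fraction.

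The next paragraphs follow the genes by role. For their counts, 37.5% of all genes were higher and 18.9% lower in the nucleus than in the cytosol. In the membrane fraction these were 21.1% and 9.12%. Among 9 repressors of imprinted loci and retroelements, all KRAB genes, 8 could be tested for counts, and 2 were higher in the nucleus and 1 lower. Zfp57, which keeps DNA methylation at imprinted loci, was the most covered Zfp gene, with 769, 1196 and 2178 CPM at the lowest, median and highest in the nucleus and 511, 554 and 657 CPM in the cytosol. The fractions did not overlap, and the log2 ratio was 1.23 ± 0.24 (SE, edgeR adjusted p = 0.00016). Its RNA was older than the family average, with nuclear shares at 60 min of 0.332, 0.286, 0.362 and 0.309 and cytosolic shares of 0.142, 0.170, 0.387 and 0.335, which overlap. Zfp445, which acts on imprints as well, had 114, 214 and 276 CPM in the nucleus against 81.3, 108 and 135 CPM, a log2 ratio of 0.90 ± 0.23 (SE, edgeR adjusted p = 0.0022), and its share at 60 min was higher in the nucleus, at 0.387 ± 0.056 against 0.176 ± 0.081 (SD, n = 4, limma adjusted p = 0.0301).

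Zfp809, the silencer of retroviruses that use a proline tRNA as primer, had a ratio of 0.67 ± 0.31 (SE) that was not called (edgeR adjusted p = 0.0676), and equal shares of 0.463 and 0.466 in nucleus and cytosol at 60 min. Zfp568, a repressor of a placental Igf2 transcript, Zfp932, Zfp961 and Zfp819 had ratios between -0.17 and -0.09, none of them called. Zfp819 had the youngest RNA of the list, at 0.787 ± 0.076 in the nucleus and 0.823 ± 0.174 in the cytosol (SD, n = 4). Zfp69 was lower in the nucleus, with 2.79, 3.98 and 4.93 CPM against 6.22, 7.39 and 8.49 CPM (edgeR adjusted p = 9.92e-05).

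Of the transcription factors without a KRAB box, 12 passed the coverage rule, and 6 were higher in the nucleus and 1 lower. Zfp292 had the highest ratio of the list at 1.38 ± 0.37 (SE, edgeR adjusted p = 0.00321), with 105, 155 and 325 CPM in the nucleus and 35.7, 60.0 and 114 CPM in the cytosol, which overlap. Zfp704 stood at 1.37 ± 0.20 (SE, edgeR adjusted p = 8.55e-06) with 83.6 to 166 CPM against 39.1 to 62.2 CPM, without overlap. Zfp148, Zfp462, Zfp281 and Zfp263 had ratios of 0.76, 0.71, 0.70 and 0.59. Zfp281, a regulator of the exit from pluripotency, had nearly equal shares at 60 min of 0.459 ± 0.089 and 0.477 ± 0.161 (SD, n = 4). Zfp24, needed for myelination, was the lower one at -0.57, and Zfp143, Zfp219 and Zfp24 were lower in the membrane fraction, at -0.70, -0.63 and -0.59. Zfp296, expressed in pluripotent cells, had the youngest RNA of the list with 0.663 ± 0.085 and 0.755 ± 0.121, and Zfp423 the oldest.

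The 12 genes for RNA-binding, ribosome and mitosis factors had older RNA than the family, with median shares at 60 min of 0.27 for nuclear and 0.18 for cytosolic RNA. In the counts 2 were higher and 2 lower in the nucleus, and 0 higher and 6 lower in the membrane fraction. Zfp638, a nuclear matrix protein that silences retroviral DNA, was higher at 1.26 ± 0.25 (SE, edgeR adjusted p = 0.000204), with 196, 247 and 331 CPM against 79.1, 88.2 and 163 CPM and no overlap, and Zfp598 was higher at 0.75. Zfp706 and the nucleolar protein gene Zfp330 were lower, the latter at -0.71 ± 0.16 (SE, edgeR adjusted p = 0.000841). Zfp207, which helps load Bub3 at kinetochores, and Zfp106, an RNA-binding protein of motor neurons, were among the most abundant, with cytosolic medians of 372 and 563 CPM, and had shares of 0.118 ± 0.030 and 0.106 ± 0.044 in the cytosol at 60 min (SD, n = 4). The ribosome assembly factors Zfp593 and Zfp622 had nuclear over cytosolic count ratios of -0.49 and -0.06, neither called.

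The partners of the KRAB box had older RNA. Over 26 co-repressor genes the median shares at 60 min were 0.20 in the nucleus and 0.13 in the cytosol, near those of all protein-coding genes. For Trim28 they were 0.159 and 0.0448 and for Setdb1 0.229 and 0.0957, both higher in the nucleus (limma adjusted p = 0.0125 and 0.0320). In the counts 9 of the 26 (34.6%) were higher and 6 (23.1%) lower in the nucleus, near the 37.5% and 18.9% of all genes. In the membrane fraction 1 (3.85%) was higher and 11 (42.3%) lower, beside 21.1% and 9.12% of all genes.

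Other families of DNA-binding zinc finger genes were nearer to the Zfp genes. The median shares at 60 min in nucleus and cytosol were 0.44 and 0.46 over 33 Zbtb genes, 0.54 and 0.43 over 18 Zscan and Zkscan genes and 0.40 and 0.48 over 19 Klf and Sp genes. In the counts the nucleus over cytosol medians of the 3 families were 0.15, 0.28 and -0.18. For 1 of 32 Zbtb genes, 1 of 16 Zscan and Zkscan genes and 0 of 19 Klf and Sp genes the nuclear share at 60 min was called higher.

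Last, whole-cell counts after 60 and 120 min of labeling were compared with those after 20 min within replicates 3 and 4, to see whether labeling moved the level of these RNAs. At 60 min edgeR called 0 of 301 Zfp genes, as 0% of all 16858 genes were called in either direction, and DESeq2 also called 0. The unadjusted edgeR p was under 0.05 for 34 Zfp genes, all of them lower, and for 747 of all 16858 genes in either direction. The Zfp genes lay lower nonetheless, with 245 of 301 below 0 and a median log2 change of -0.26, where 48.6% of protein-coding genes were below 0. At 120 min 0 were called higher and 0 lower, with 0.0712% and 0.0415% of all genes called. At an unadjusted edgeR p under 0.05, 43 Zfp genes were lower and 2 higher, beside 1656 of all 16858 genes in either direction. DESeq2 called 1 higher and 1 lower. The median change was -0.19, and 237 of 301 were below 0. The medians rest on single replicates. Without replicate 4 they were -0.11 at 60 min and -0.06 at 120 min, and 6 Zfp genes had an unadjusted p under 0.05 at either time. Without replicate 3 they were -0.37 and -0.34. Per the labels the 4sU dose also changed between 20 min and the later times, and the dose of the later libraries is unsure, so dose and time cannot be told apart here.

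At 60 min these changes moved with base composition. Spearman's rho with the G+C content of the coding sequence was 0.70 over 300 Zfp genes and 0.39 over 10804 protein-coding genes. Below 40% G+C the median change was -0.54 over 64 Zfp genes and -0.31 over 148 other genes, and from 55% up it was near 0 over 66 and 0.08 over 4035. Single libraries of the same labeling time also differed along this axis. Across the whole-cell libraries rho between a library's deviation from the mean and G+C content ran from -0.68 to 0.73 over the Zfp genes, and was 0.61 and 0.73 at 60 min in replicates 3 and 4 but -0.02 and -0.67 in replicates 5 and 6. At 120 min rho was 0.34 over the Zfp genes, 0.01 over the 124 of them without a KRAB match and -0.01 over protein-coding genes. The part of base composition in the change was not tested.

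**Figure D5:**
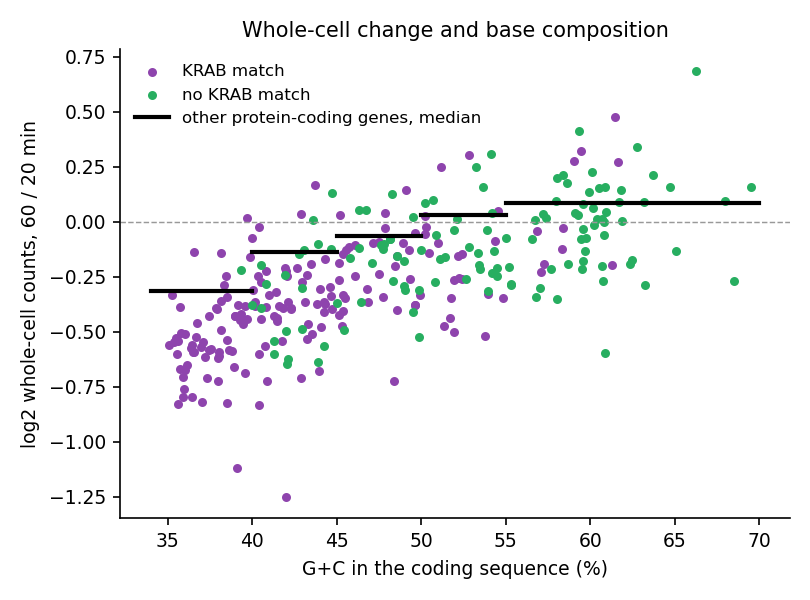
Log2 change of whole-cell counts between 20 and 60 min of labeling (replicates 3 and 4) against the G+C content of the coding sequence in percent. Purple and green points are Zfp genes with and without a KRAB match and black bars the medians of other protein-coding genes per range of G+C; Zfp genes under 40% G+C have a median of -0.54 and those from 55% up lie around 0.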

How the data were processed

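The authors aligned paired reads of stranded poly(A) libraries to mm10 with STAR 2.7.6 and counted uniquely placed reads per gene with HTSeq 0.11.1; these deposited gene counts are raw. They also deposited raw counts of T positions and of T-to-C mutations in exons and introns, which keep reads with several alignments, a conversion probability per library (a fraction, from a mixture model) and the ratio of conversions to positions divided by it. No background of unlabeled libraries was subtracted here, and the ratio was recomputed from the counts. RSEM 1.3.3 is named in the submitters' processing notes and its values were not used.

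Gene coordinates, fingers, KRAB matches, shared windows and sequences came from GENCODE M21 on GRCm38, while the authors' annotation was M14, and 51633 genes matched. Counts were summed over labeling times per replicate and fraction, filtered with filterByExpr and tested with edgeR 4.0.16 (TMM, quasi-likelihood) in 1 fit of 3 fractions with 6 sums each, without a block. Whole-cell libraries were fitted singly. Shares were tested with limma 3.58.1 on log2 of (conversions + 0.5) over (positions + 1) and over the conversion probability, for genes with at least 400 positions in every library used. These fits had no block either, so intron and exon shares of the same library were treated as unpaired. Counts with the replicate as a block are given among the alternatives. A call needs a Benjamini-Hochberg adjusted p under 0.05 over all genes tested and an absolute log2 difference over 0.5. Log2 differences come with their SE. R was 4.3.3, DESeq2 1.42.0 and Python 3.11.15. Scripts were tested on simulated data.

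Replicates are separately passaged cultures, so p-values measure the spread between these cultures of 1 line. Fractions with the same number come from the same culture. Deviations from the fraction mean correlated between nucleus and cytosol at 0.13 to 0.55 and between membrane fraction and cytosol at 0.73 to 0.85 across genes in the 6 replicates. Different numbers were not correlated with each other, so these values cannot tell a shared culture from a shared pair of replicates. Named genes are the 8 highest and 8 lowest nucleus over cytosol ratios, the 5 best covered, the 5 highest and lowest nuclear shares at 60 min, membrane ratios and intron over exon differences, and role lists; genes named for a call or an intron share under 0.5 were added after their values were seen. The members and lists were chosen with earlier results of these data known. Alternatives covered scaling, filters, pseudocount, pairing, single replicates, pairs of replicates and the rule for members. Precision of counts and shares covers counting error only where a single library is given.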

Additional observations from a re-analysis of the deposited data

Results flagged for a closer look

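Of 76 groups of 4 to 6 values examined for the named genes, 4 held a value far from the others, and chance flags about 1 group in 20. Zfp600 had 139 CPM in the nucleus of replicate 1, where the median of the other replicates was 61.8 CPM. Zfp990 had 1190 CPM in the same nuclear sum, against 486 CPM in the others. Zfp706 had 649 CPM in the cytosol of replicate 3, against 393 CPM. Zfp941 had a nuclear exon share of 0.652 at 60 min in replicate 4, against 0.863.

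Over the Zfp genes the pairs of replicates had differences of opposite sign between nucleus and cytosol at 60 min. The log2 ratio of the median nuclear to the median cytosolic Zfp exon share was 0.571 in replicate 3 and 0.238 in replicate 4, but -0.0960 in replicate 5 and -0.133 in replicate 6. The difference between the pairs, tested gene by gene in limma, called 0 of 305 Zfp genes. Its median log2 value was 0.45 over the Zfp genes and 0.95 over protein-coding genes, so the shift was not particular to the family. Over protein-coding genes the median log2 difference between nucleus and cytosol was 1.22 within replicates 3 and 4 and 0.25 within replicates 5 and 6. Pair and dose cannot be told apart.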

How the results depend on the processing

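Calls of Zfp genes depended most on scaling and on single replicates. For nucleus against cytosol 55 genes were lower with RLE size factors, 56 with DESeq2, 71 with unsummed libraries, 48 within replicates 1 and 2 and 64 within replicates 3 and 4; leaving out 1 replicate gave 63 to 103 higher and 29 to 70 lower. For membrane against cytosol the pairs gave 14, 11 and 3 higher and 88 lower in replicates 1 and 2, total-count scaling 2 and 184, and left-out replicates 5 to 6 and 38 to 53. For the 20 min share the counts were 73 without the log, 28 within replicates 1 and 2, 1 lower with a pseudocount of 2, and 47 to 152 higher with a replicate left out. For the 60 min share they were 30 and 10 at a minimum of 2000 positions, 1 lower at 100, 83 higher within replicates 3 and 4, 0 and 0 within replicates 5 and 6, and 0 to 17 and 0 to 2 with a replicate left out. For introns at 60 min 118 were higher at a minimum of 2000 positions, where 139 genes could be tested. For whole cells 1 gene was lower at 60 min without a filter, and at 120 min 1 and 1 with DESeq2, 1 and 6 without a filter, and 0 to 1 and 0 to 2 with a replicate left out. The replicate block gave 31 and 11 for the 60 min share and 1 lower intron share at 20 min, and moved no other count by over 1.5 times (106 and 35 for nucleus against cytosol, 6 and 64 for membrane against cytosol). The log2 ratio of Zfp423 between nucleus and cytosol was 0.56, and those of Zfp692 and Zfp773 between membrane fraction and cytosol 0.31 and 0.77, within replicates 3 and 4, against the sign over all replicates. Total-count scaling, the test between pairs and the set without duplicated genes were chosen after seeing the data. The cause was not tested in any case. In all, 160 of the counts moved by less than 1.5 times, and 44 moved further. Among values of single genes, 5796 moved by less than 1.5 times and kept direction and call, and 235 moved further. Another 335 lost and 209 gained a call, and 3 reversed. Depth limits genes under 1 CPM, such as Zfp82, and shared sequence limits the duplicated clusters.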
